A study of Mus musculus with 74 samples.

Results

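The members described here are the probes for proteasome subunits and for the enzymes that attach or remove ubiquitin, on a mouse cDNA array of 8976 probes. They were chosen by gene symbol alone: a probe qualified if the platform annotation gave it a single symbol of the Psma to Psmg, Ube, Uba, Usp, Rnf, Cul, Fbxl, Fbxo, Fbxw, Trim, Herc or Nedd families. This gave 185 probes, or 2.06% of the array, for 144 of the 5844 genes named by a single symbol. Of these genes, 112 lay on 1 probe each and 32 on several, which share 73 probes, so the probes are not independent. All 185 symbols matched a RefSeq gene. By role they comprised 8 probes for the 20S core, 2 for the 19S ATPases, 8 for other 19S subunits, 9 for proteasome activators, inhibitor and assembly factors, 5 for E1 enzymes, 13 for E2 enzymes, 5 for HECT and U-box ligases, 7 for cullins, 26 for F-box proteins, 37 for RING finger proteins, 34 for TRIM proteins and 31 for Usp proteins. A shared name does not make a shared function: Usp39 acts in splicing and Usp6nl is a GTPase-activating protein, so neither is a deubiquitinase, and Psme3ip1 is an interactor of a proteasome activator.

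Ubiquitin is activated by an E1 enzyme, passed to an E2 conjugating enzyme and joined to a substrate with the help of an E3 ligase. Most E3 ligases are RING or TRIM proteins or cullin complexes, while HECT ligases carry ubiquitin themselves. In some of the cullin complexes F-box proteins select the substrate. Deubiquitinases such as the Usp proteins take ubiquitin off, and substrates with ubiquitin chains are unfolded by the 19S particle and cleaved in the 20S core of the proteasome. The pathway limits TGF-β signalling: the HECT ligases Smurf1 and Smurf2 mark receptors and Smad proteins for degradation, and Usp15 and other deubiquitinases oppose them.

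Each array compared 2 channels, of which channel 1 held RNA of cells without TGF-β and channel 2 RNA of cells given TGF-β, a cytokine that signals through receptor kinases to Smad proteins. The 74 arrays cover S2KO, U0126, S2WT, S3KO and S3WT cells at 0, 0.3, 1, 2 and 4 h, with 3 arrays a group except S3KO at 1 h, which has 2. On the 0 h arrays both channels lacked TGF-β, so these give each probe's ratio without treatment. S2 and S3 stand in the published study for Smad2 and Smad3, which the labels do not spell out, KO marks the knockout and WT the wild type, and U0126, an inhibitor of the MEK kinases, names arrays titled S2WT_vs_U0126, whose labels give S2WT/U0126 for both channels. The labels name no cell type, clone or age. A ratio cannot show a gene's level, so neither the knockouts nor a cell type could be checked against markers, and fewer cells of a type cannot be told apart from less RNA per cell. The labels do not say whether replicates came from separate cultures, so p-values measure only the spread between these arrays, which may be technical.

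The labels conflict in places: arrays titled S2WT 4 h have 2 h as their source name, and both channels of the S3KO 0.3 h arrays are given as without TGF-β. The direction of the ratio, read as channel 2 over channel 1, is likely but not certain. Of 9 genes known to be induced by TGF-β, 10 of 11 probes were tested in S2WT cells, and 9 of the 10 lay above 0 in the mean of 1, 2 and 4 h minus the line's own 0 h arrays, with a median log2 difference of 0.59. This list was written with earlier results of these data known, so its signs are no independent check of the direction. Between 7688 and 8713 probes were measured per array, of which 155 to 184 were members. Arrays of a group correlated weakly over all probes, with r of -0.047 to 0.38, and the S3KO 1 h array of replicate 2 had r under -0.1 with 30 of the 73 other arrays. All values below are log2 ratios after each array was centred on its median, and a log2 difference of 1 is a 2-fold change in the ratio.

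The members whose S2KO arrays passed the test described below were Usp12, Rnf149, Psme3, Rnf220, Rnf144a and Trim2, and the start regions of the first 5 are shown, since each has 1 start site in the RefSeq table, against 5 for Trim2. Each window of 300 bases, most of them upstream, spans the start of the gene in RefSeq, build GRCm38.p6, written 5′ to 3′ on the gene's strand. Capitals mark the matches, on either strand, to the letters CAGAC (the Smad-binding element), GGCGC (a GC-rich Smad motif) and TGANTCA (the AP-1 motif).
Usp12, chr5:146794907-146795206, minus strand: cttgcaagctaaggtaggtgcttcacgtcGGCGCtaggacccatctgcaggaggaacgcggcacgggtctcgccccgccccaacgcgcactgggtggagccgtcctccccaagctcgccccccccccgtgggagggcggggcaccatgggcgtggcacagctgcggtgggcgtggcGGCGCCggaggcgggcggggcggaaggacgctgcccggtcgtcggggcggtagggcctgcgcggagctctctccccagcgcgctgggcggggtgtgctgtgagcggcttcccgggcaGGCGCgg
Rnf149, chr1:39577298-39577597, minus strand: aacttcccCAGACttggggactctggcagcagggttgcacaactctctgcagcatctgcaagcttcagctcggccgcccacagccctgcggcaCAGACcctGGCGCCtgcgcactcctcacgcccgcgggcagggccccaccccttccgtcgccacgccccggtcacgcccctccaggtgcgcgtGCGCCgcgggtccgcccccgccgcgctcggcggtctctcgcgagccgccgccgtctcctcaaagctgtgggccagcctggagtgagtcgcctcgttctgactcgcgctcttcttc
Psme3, chr11:101315963-101316262, plus strand: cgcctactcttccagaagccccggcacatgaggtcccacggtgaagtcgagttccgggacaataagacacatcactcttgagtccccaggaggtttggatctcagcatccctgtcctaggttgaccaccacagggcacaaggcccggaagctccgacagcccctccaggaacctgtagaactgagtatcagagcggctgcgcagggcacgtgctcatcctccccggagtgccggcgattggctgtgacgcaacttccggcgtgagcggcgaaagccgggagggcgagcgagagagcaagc
Rnf220, chr4:117375412-117375711, minus strand: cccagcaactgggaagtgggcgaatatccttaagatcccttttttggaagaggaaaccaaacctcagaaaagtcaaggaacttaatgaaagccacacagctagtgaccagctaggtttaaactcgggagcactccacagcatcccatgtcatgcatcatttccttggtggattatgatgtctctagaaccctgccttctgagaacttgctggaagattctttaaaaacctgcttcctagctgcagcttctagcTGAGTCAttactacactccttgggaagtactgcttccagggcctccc
Rnf144a, chr12:26415213-26415512, minus strand: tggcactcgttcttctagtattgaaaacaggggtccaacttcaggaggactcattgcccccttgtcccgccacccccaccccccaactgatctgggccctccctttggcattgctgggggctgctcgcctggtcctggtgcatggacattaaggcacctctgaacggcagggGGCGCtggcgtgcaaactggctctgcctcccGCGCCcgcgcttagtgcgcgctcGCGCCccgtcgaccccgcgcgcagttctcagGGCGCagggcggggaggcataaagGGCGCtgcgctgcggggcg
CAGAC was found 2 times at Rnf149 and not in the other 4 windows. GGCGC matched 5 times at Rnf144a, 4 times at Usp12 and 3 times at Rnf149, where a GGCGCC run counts 2 times because it matches on both strands. TGANTCA matched 1 time, at Rnf220. Over all 132 member start regions of 107 genes, 47.7% held CAGAC, 55.3% GGCGC and 8.33% TGANTCA, against 49.6%, 36.9% and 7.81% of all 32851 start regions. The GC content differed between these sets as well, with a median of 60.8% in the member regions and 52.7% in all. A match is a match of letters, not a binding site.

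Few members, like few probes of the whole array, passed the test for a response to TGF-β, and a member that did not pass may still have changed. For each line the mean of the 1, 2 and 4 h arrays was set against that line's own 3 arrays at 0 h, and a probe was called at an adjusted p under 0.05 by limma's moderated test over all probes measured on at least 2 arrays a group. In S2KO cells 0 of 176 tested members passed, against 0.515% of all 8151 tested probes, and 11 had an unadjusted p under 0.05 (8.22% of all probes did). In U0126 arrays 1 of 172 passed, against 0.0719% of all probes, and in S2WT cells 0 of 174, against 0.192%, with 14 members under an unadjusted p of 0.05 (7.8% of all probes). In S3KO cells 3 of 160 members passed, all higher, against 1.53% of all probes in either direction and 0.683% higher. In S3WT cells 0 of 178 passed, against 0.12%, with 6 members under an unadjusted p of 0.05 (5.47% of all probes). The members' median log2 difference was -0.061 in S2KO cells, -0.011 in U0126 arrays, -0.014 in S2WT cells, 0.062 in S3KO cells and 0.0044 in S3WT cells. Over all tested probes it was -0.034, -0.012, 0.020, -0.0018 and -0.0034 in the same order of lines.

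The 0 h arrays of 1 line are only 3, so the same treated arrays were also set against the 15 arrays at 0 h of all lines. In S2KO cells 3 of 165 members then passed limma's test, all higher, against 2.49% of all probes in either direction and 1.91% higher. In S2WT cells 1 of 163 passed, also higher, against 1.27% in either direction and 0.847% higher. No member passed limma's test in the other lines. In U0126 arrays 160 were tested, against 0.782% of all probes called, and 15 had an unadjusted p under 0.05 (10.6% of all probes). In S3KO cells 155 were tested, against 0.0141% called, with 9 under 0.05 (5.17%), and in S3WT cells 166, against 0.146%, with 13 under 0.05 (8.41%). The 5 sets of values share the 15 arrays. With only the 4 h arrays in place of the mean, a comparison chosen after the data were seen, 5 of 167 members passed in S2KO cells, 3 higher and 2 lower, against 3.86% of all probes, 2.57% higher and 1.3% lower. In S2WT cells 1 of 167 passed, against 1.45%. By limma's test none did in U0126 arrays, of 167 tested, against 1.19% called, with 12 under an unadjusted p of 0.05 (9.11% of all probes). None of 164 did in S3KO cells, against 0.117%, with 11 under 0.05 (3.77%), and none of 167 in S3WT cells, against 0.298%, with 11 under 0.05 (6.75%). In most of these comparisons the members' share of calls lay at or below that of all probes. It lay above it in the own 0 h comparisons of S3KO cells and U0126 arrays, with the few calls named below.

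**Figure D1:**
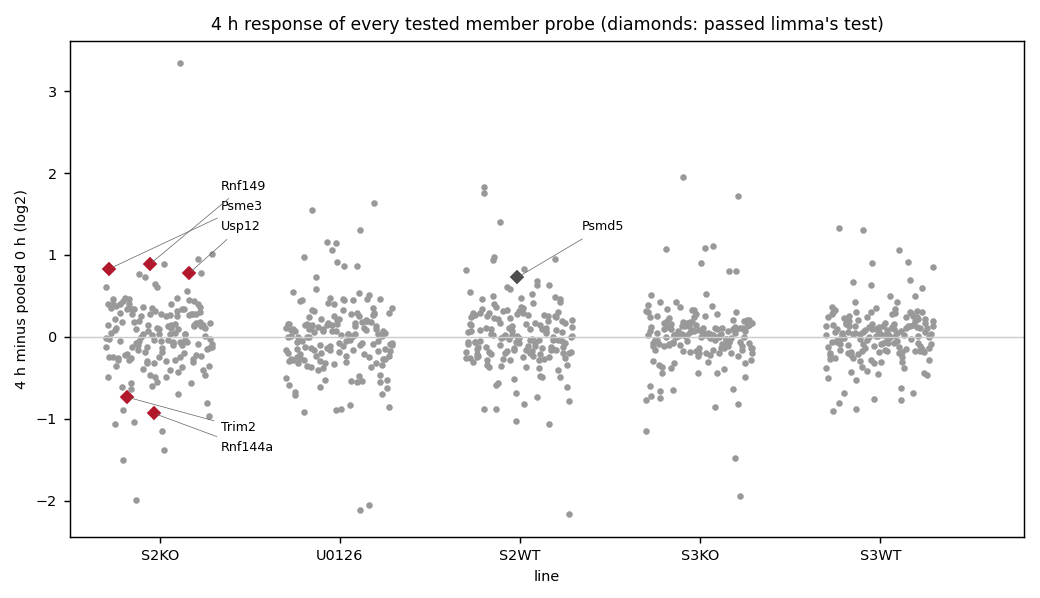
Each point is 1 member probe, the y axis the 4 h arrays minus the pooled 0 h arrays of all lines (log2), and the x axis the line. The diamonds, which passed limma's test, are 5 probes in S2KO cells, between -0.93 and 0.89, and Psmd5 in S2WT cells, at 0.73.

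Among the proteasome genes, 20S subunits were centred near 0 in every line. For the 7 tested 20S probes the median 4 h minus pooled 0 h difference was 0.10 in S2KO cells, -0.08 in U0126 arrays, -0.20 in S2WT cells, -0.031 in S3KO cells and 0.0037 in S3WT cells, and none passed the test. Psma5, an alpha-ring subunit, showed 0.10 ± 0.14 (standard error) in S2KO cells and -0.24 ± 0.14 in S2WT cells. Psmb3, a beta-ring subunit, lay above 0 on 67 of its 72 measured arrays, with a median of 0.44 on the treated arrays at 1, 2 and 4 h and 0.63 on the 0 h arrays, so its offset was present without TGF-β as well. The ATPases of the 19S base, Psmc4 and Psmc5, differed at 4 h by 0.08 ± 0.14 and 0.13 ± 0.14 in S2KO cells and by 0.28 ± 0.14 and 0.27 ± 0.14 in S2WT cells, and none of these passed.

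Psmd5, a chaperone that helps to assemble the 19S base, rose in S2WT cells by 0.51 ± 0.12 (adjusted p = 0.022) over the mean of 1, 2 and 4 h and by 0.73 ± 0.19 at 4 h (adjusted p = 0.031), against the pooled 0 h arrays by limma's test. Its S2WT values in replicates 1, 2 and 3 were -0.17, -0.60 and -0.06 at 0 h, -0.05, 0.13 and 0.02 at 0.3 h, 1.24, 0.17 and 0.01 at 1 h, -0.02, -0.04 and 0.09 at 2 h, and 0.04, 0.13 and 1.54 at 4 h. Replicate 1 at 1 h and replicate 3 at 4 h stand far above the rest. Without the 4 h array of replicate 3 the mean difference was 0.35 (adjusted p = 0.105), and without the 1 h array of replicate 1 it was 0.38 (adjusted p = 0.125). The 4 h call was also lost without replicate 3, at 0.24, and the mean lost its call with uncentred arrays, at 0.33 (adjusted p = 0.106). The other lines showed -0.01 ± 0.12 in S2KO cells, 0.08 ± 0.13 in U0126 arrays, 0.14 ± 0.14 in S3KO cells and -0.01 ± 0.12 in S3WT cells. The difference between the S2KO and S2WT responses, each over its own 0 h arrays, was -0.79 ± 0.28 (adjusted p = 0.50). Psmd13, a lid subunit, differed by 0.44 ± 0.18 in S2KO cells and 0.49 ± 0.18 in S2WT cells at 4 h, with adjusted p of 0.18 and 0.19.

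Psme3, the gamma subunit of a nuclear activator of the 20S core, rose in S2KO cells at 4 h by 0.83 ± 0.20 (probe 6425, adjusted p = 0.0079). Its 3 S2KO values at 4 h were 1.25, 0.11 and 0.92, against -1.03, -0.10 and 0.03 at 0 h, and over the 14 measured 0 h arrays of all lines it ranged between -1.03 and 0.31, with a median of 0.050. Replicate 2 lay within the range of the 0 h arrays and the other replicates above it. A second probe of the gene, 3951, gave 0.38 ± 0.16 (adjusted p = 0.20). In the other lines probe 6425 gave 0.16 ± 0.20 in U0126 arrays, 0.15 ± 0.20 in S2WT cells, 0.23 ± 0.20 in S3KO cells and 0.34 ± 0.20 in S3WT cells. Of all tested probes, 52.4% lay above 0 in S2KO cells at 4 h against the pooled 0 h arrays, with a median of 0.025. All 8 tested probes of the activator, inhibitor and assembly group did, with a median of 0.37. So did the 8 probes of the 19S non-ATPase group, with a median of 0.28. The probes of these groups include 2 each for Psme3, Psmd1 and Psmd11. Of these 16 probes only Psme3 6425 passed. In U0126 arrays 4 of 8 activator, inhibitor and assembly probes and 7 of 8 19S non-ATPase probes lay above 0, in S2WT cells 5 and 5, in S3KO cells 4 and 5, and in S3WT cells 7 and 5, against 51.3% to 53.9% of all probes. Set beside the S2KO 0 h means instead, the S2KO 4 h mean was lower for Psme4 (-0.25 against 0.00033) and Psmd5 (-0.048 against -0.0053). It was level for Psmg2 (0.288 against 0.284) and higher for the others, which was not tested. The pooled 0 h arrays include S3KO means of -0.91 for Psme4 and -2.09 for Psmf1.

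Neither E1 nor E2 enzymes held a called probe. Uba7, the activating enzyme of the ubiquitin-like protein ISG15, differed by -0.57 ± 0.31 in S2KO cells and -0.37 ± 0.31 in U0126 arrays at 4 h on probe 3323. Ube2l6, the E2 that carries ISG15, showed -0.61 ± 0.19 in S2KO cells (adjusted p = 0.063), 0.46 ± 0.19 in U0126 arrays (adjusted p = 0.39) and 0.46 ± 0.19 in S2WT cells (adjusted p = 0.33) at 4 h. The difference of the S2KO and S2WT responses over their own 0 h arrays was -0.96 ± 0.29 for this probe (unadjusted p = 0.0018, adjusted p = 0.37). Ube2o, a large E2 with ligase activity of its own that acts on Smad6, gave the smallest p among the members in this comparison, at -0.79 ± 0.23 (adjusted p = 0.31). The 11 probes of the 9 interferon-inducible members, which include Uba7, Ube2l6 and Trim25, held no called probe in any of the 18 comparisons, where between 0.0141% and 3.86% of all probes were called, so that a count of 0 among 11 sets them apart from no others.

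The cullins, scaffolds of modular E3 ligases, and the F-box proteins gave 1 called probe in all comparisons. Cul3 rose in S3KO cells by 2.33 ± 0.42 over the mean of 1, 2 and 4 h (adjusted p = 0.0011) against the S3KO 0 h arrays, which read not measured, -4.39 and -0.54 in replicates 1, 2 and 3. The later S3KO values were 0.10, -1.95 and -0.56 at 0.3 h, 0.81 and -0.33 in replicates 2 and 3 at 1 h, -0.26, -0.19 and -0.56 at 2 h, and -0.12, -0.57 and -0.22 at 4 h. The treated arrays thus lay near the -0.22, -0.07 and -0.29 of the S3WT cells at 4 h, and the 0 h array of replicate 2 alone lay near -4. Set against 0 rather than the 0 h arrays, the treated arrays gave -0.13, and against the pooled 0 h arrays 0.55 ± 0.24 (adjusted p = 0.87). No other cullin passed. Nedd4l, a HECT ligase of Smad proteins, gave values between -0.59 and 0.22 on its 3 probes over the 5 pooled comparisons, none called. The closest F-box probe was Fbxo9, which gave 0.42 ± 0.12 in S2WT cells (adjusted p = 0.074) and 0.35 ± 0.12 in S2KO cells (adjusted p = 0.12) against the pooled 0 h arrays, and all 9 treated S2WT arrays lay above the line's 0 h mean.

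RING finger proteins, 37 of the 185 member probes, held 5 of the 10 probes called in any comparison. Rnf220, a ligase known for its role in neural patterning, rose in S2KO cells by 0.52 ± 0.11 against the pooled 0 h arrays (adjusted p = 0.0039). Its S2KO values in replicates 1, 2 and 3 were 0.66, 0.46 and 0.60 at 0 h, 0.46, -0.17 and 0.58 at 0.3 h, 0.73, 0.96 and 0.51 at 1 h, 1.22, 1.11 and 1.38 at 2 h, and 0.57, 0.51 and 0.70 at 4 h. The 2 h arrays all lay above the highest of the other 71 arrays, which was 0.96, and the 4 h arrays were within the S2KO 0 h range or near it. With the 2 h arrays alone the difference was 0.90 (adjusted p = 0.00058), while with the 4 h arrays alone it was 0.26 ± 0.17 (adjusted p = 0.55). Against the 3 S2KO 0 h arrays the mean over 1, 2 and 4 h was 0.28 ± 0.18 (adjusted p = 0.78), and the call against the pooled 0 h arrays held without any 1 of the 24 arrays it used. It was lost with uncentred arrays, at 0.41 (adjusted p = 0.094), and with arrays scaled to a common spread, at 0.38 (adjusted p = 0.098). Values in the other lines were 0.09 ± 0.11 in U0126 arrays, 0.05 ± 0.11 in S2WT cells, 0.05 ± 0.12 in S3KO cells and -0.04 ± 0.11 in S3WT cells. The S2KO minus S2WT difference, over own 0 h arrays, was 0.23 ± 0.26 (adjusted p = 0.90), so the call in S2KO cells is not shown to differ from S2WT cells.

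Rnf149, a membrane-bound ligase, rose in S2KO cells by 0.48 ± 0.14 against the pooled 0 h arrays (adjusted p = 0.047), a call that 16 of 24 leave-one-out fits lost, and by 0.89 ± 0.21 at 4 h (adjusted p = 0.0065). The first call was also lost in 5 of 6 alternatives of processing or time. Among these was the pool without the S3KO 0 h arrays, whose mean for Rnf149 was -0.75. Its values in S2KO cells were 0.86, 0.27 and 1.17 at 4 h, against -0.75, 0.29 and 0.02 at 0 h. The 4 h values of replicates 1 and 3 lay above the highest of the 15 pooled 0 h arrays, which was 0.41, and replicate 2 below it. In S3WT cells it gave 0.64 ± 0.21 at 4 h by limma's test (adjusted p = 0.22), which did not pass. The S3WT arrays read 0.37, 0.70 and 0.47 at 4 h and 0.23, 0.12 and 0.26 at 0 h. At 4 h Rnf149 gave -0.11 ± 0.21 in U0126 arrays, 0.23 ± 0.21 in S2WT cells and 0.21 ± 0.21 in S3KO cells.

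Rnf144a, a ligase anchored in membranes, fell in S2KO cells at 4 h by 0.93 ± 0.25 on the log2 scale (probe 2404, adjusted p = 0.025). Its 4 h values were -1.20, -1.03 and -1.60 in S2KO cells, -0.89, -0.45 and -0.69 in U0126 arrays, -0.78, -1.15 and -0.67 in S2WT cells, -0.35, -0.03 and -0.35 in S3KO cells and -0.80, -1.11 and -0.08 in S3WT cells. All 15 lay below 0, and the S2KO values lay below the S2KO 0 h values of -0.37, -0.12 and -0.12. The S2KO values at 4 h lay above the lowest of the pooled 0 h arrays, which was in S3WT cells. Probe 7269 of the gene gave -0.89 ± 0.48 in S2KO cells (adjusted p = 0.40), with 4 h values of -1.15, -1.23 and -1.45. In U0126, S2WT and S3WT arrays it was below 0 on all 9 arrays at 4 h, between -1.43 and -0.36, and in S3KO cells it read 0.16 and 2.97 on the 2 arrays that measured it. The median over the 0 h arrays was also below 0, at -0.32 over 12 measured arrays for probe 2404 and -0.37 over 15 for probe 7269. The S2KO call on probe 2404 was lost without the pooled S3KO 0 h arrays, with a difference of -0.61 (adjusted p = 0.25).

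The S3KO arrays also set Rnf144a apart. The S3KO response minus the S3WT response, each over its own 0 h arrays, was -2.05 ± 0.44 (adjusted p = 0.045) for probe 2404, the only member of 158 tested to pass, against 0.126% of all probes. The S3KO 0 h arrays read 1.89 and 0.05 with 1 not measured, against -1.91 and -1.41 with 1 not measured for the S3WT 0 h arrays. Treated arrays of the lines compared directly gave 0.57 (adjusted p = 0.55), in the opposite direction. The call thus rests on 2 measured 0 h arrays a line, and it was lost in 5 of 17 leave-one-out fits and in a fit on S3KO and S3WT arrays alone (adjusted p = 0.356). In S3KO cells the mean of probe 2404 went from 0.97 at 0 h to -0.24 at 4 h. The gene's probe 7269 went the other way, from -0.39 on 3 arrays to 1.565 on 2. Only 1 S3KO array at 1 h measured probe 7269, so its line difference was not tested. In the other tests of a difference between lines, no member of 166 passed in S2KO minus S2WT by limma, against 0.0386% of all probes, with 12 under an unadjusted p of 0.05 (7.13% of all probes). None of 166 passed in U0126 minus S2WT, against 0.0252%, with 13 under 0.05 (6.11%). In U0126 minus S2WT, Rnf31, a component of the linear ubiquitin chain assembly complex, gave the smallest p, at -1.19 ± 0.34 (adjusted p = 0.40).

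Rnf115 and Rnf19a rose in S3KO cells against their own 0 h arrays, by 1.83 ± 0.49 (adjusted p = 0.045) and 1.28 ± 0.35 (adjusted p = 0.047). Rnf115 is a RING ligase also called BCA2, and Rnf19a belongs to the RING-between-RING family. The S3KO 0 h arrays of Rnf115 read -1.03, -2.52 and -1.45, against -0.61, -0.74 and -0.36 in S3WT cells at 0 h. For Rnf19a they read -1.11, -1.70 and 0.06, against -0.34, 0.03 and -0.10. At 4 h replicate 2 of S3KO cells was the highest for each gene, at 2.69 and 2.06, while replicates 1 and 3 read -0.34 and -0.18 for Rnf115 and 0.23 and -0.22 for Rnf19a. Against the pooled 0 h arrays the differences were 0.52 ± 0.33 and 0.58 ± 0.24, with adjusted p of 1 and 0.85. Without the 0 h array of replicate 2 they were 1.40 and 0.89, neither of which passed. Leaving out 1 array at a time, Rnf115 lost its call in 7 of 11 fits and Rnf19a in 5 of 9, and with only the S3KO arrays in the fit the differences were the same size, but no probe of the array passed, these genes and Cul3 included.

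**Figure D2:**
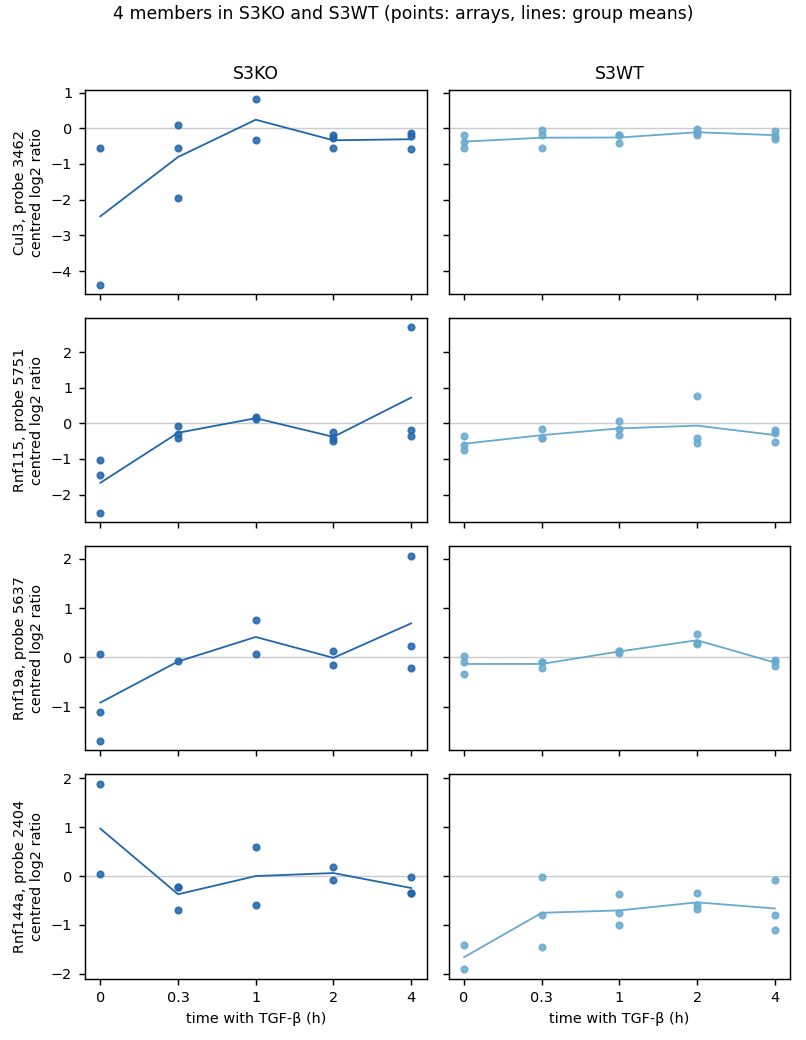
Centred log2 ratios of Cul3, Rnf115, Rnf19a and Rnf144a against time with TGF-β, S3KO cells on the left and S3WT cells on the right. Points are arrays and lines group means. Times are evenly spaced on the axis. The S3KO 0 h points hold the lowest Cul3 value, -4.39, the lowest Rnf115 value, -2.52, and the highest Rnf144a value, 1.89.

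The TRIM proteins, most of them RING ligases with B-box and coiled-coil domains, gave 1 call. Trim2, a ligase known for a role in neurons, fell in S2KO cells at 4 h by 0.74 on the log2 scale, with a standard error of 0.21 (adjusted p = 0.029), and is named after its value was seen. Its S2KO values were -1.66, -0.42 and -0.86 at 4 h, against -0.60, -0.39 and -0.37 at 0 h, so only replicates 1 and 3 lay below the S2KO 0 h range. Without the 4 h array of replicate 1 the difference was -0.40 (adjusted p = 0.67). It was below 0 on 66 of 74 arrays. Trim8 probe 5222 lay below 0 in all 5 pooled comparisons, between -0.47 and -0.34, with no call. These comparisons share their 0 h arrays, and the S3KO 0 h mean of this probe was 1.02. In S3KO cells the mean of the gene's probe 3009 went from -0.29 at 0 h to 0.03 at 4 h, and 5505 from 0.14 to 0.49. In S2KO cells 3009 went from 0.51 to 0.13 and 5505 from 0.59 to 0.14. Probe 6893 went from 0.72, on 1 array, to 1.12 in S3KO cells and from -0.07 to -1.16 in S2KO cells. Trim25, a ligase of the antiviral sensor RIG-I, gave -0.63 ± 0.19 in U0126 arrays by limma's test (adjusted p = 0.12).

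Usp12 is a deubiquitinase that works with the WD-repeat proteins Wdr48 and Wdr20. On probe 7299 its mean over 1, 2 and 4 h lay above the pooled 0 h mean in all 5 lines. Against the pooled 0 h arrays it gave 0.54 ± 0.14 in S2KO cells (adjusted p = 0.023), 0.44 ± 0.15 in U0126 arrays (adjusted p = 0.18), 0.46 ± 0.14 in S2WT cells (adjusted p = 0.091), 0.27 ± 0.15 in S3KO cells (adjusted p = 1) and 0.59 ± 0.14 in S3WT cells (adjusted p = 0.066). The S2KO value is the 1 that passed, and the 5 values share the same 15 arrays. At 4 h the arrays read 0.61, -0.01 and 0.89 in S2KO cells, 0.18, 0.34 and 0.18 in U0126 arrays, 0.42, 0.26 and 0.39 in S2WT cells, -0.18, 0.01 and -0.23 in S3KO cells and 0.37, 0.58 and 0.31 in S3WT cells. Over the 15 arrays at 0 h the probe ranged between -2.18 and 0.27, with a median of -0.086. In U0126 arrays it also passed against its own 0 h arrays, at 1.20 ± 0.23 (adjusted p = 0.0081), which read -0.38, -2.18 and -0.58. Without the 0 h array of replicate 2 the U0126 difference was 0.63 (adjusted p = 0.30), and in a fit on the U0126 arrays alone the call was lost (adjusted p = 0.457). The S2KO call was lost with uncentred arrays, at 0.44 (adjusted p = 0.18), and scaled ones, at 0.45 (adjusted p = 0.19). The other Usp12 probe, 5192, was measured on 58 of 74 arrays and gave -0.19 ± 0.55 in S2KO cells. Across the 28 tested Usp probes in S2KO cells, 11 lay above 0 against the pooled arrays, and Usp29 gave the largest difference, 1.08 ± 0.36 (adjusted p = 0.11).

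**Figure D3:**
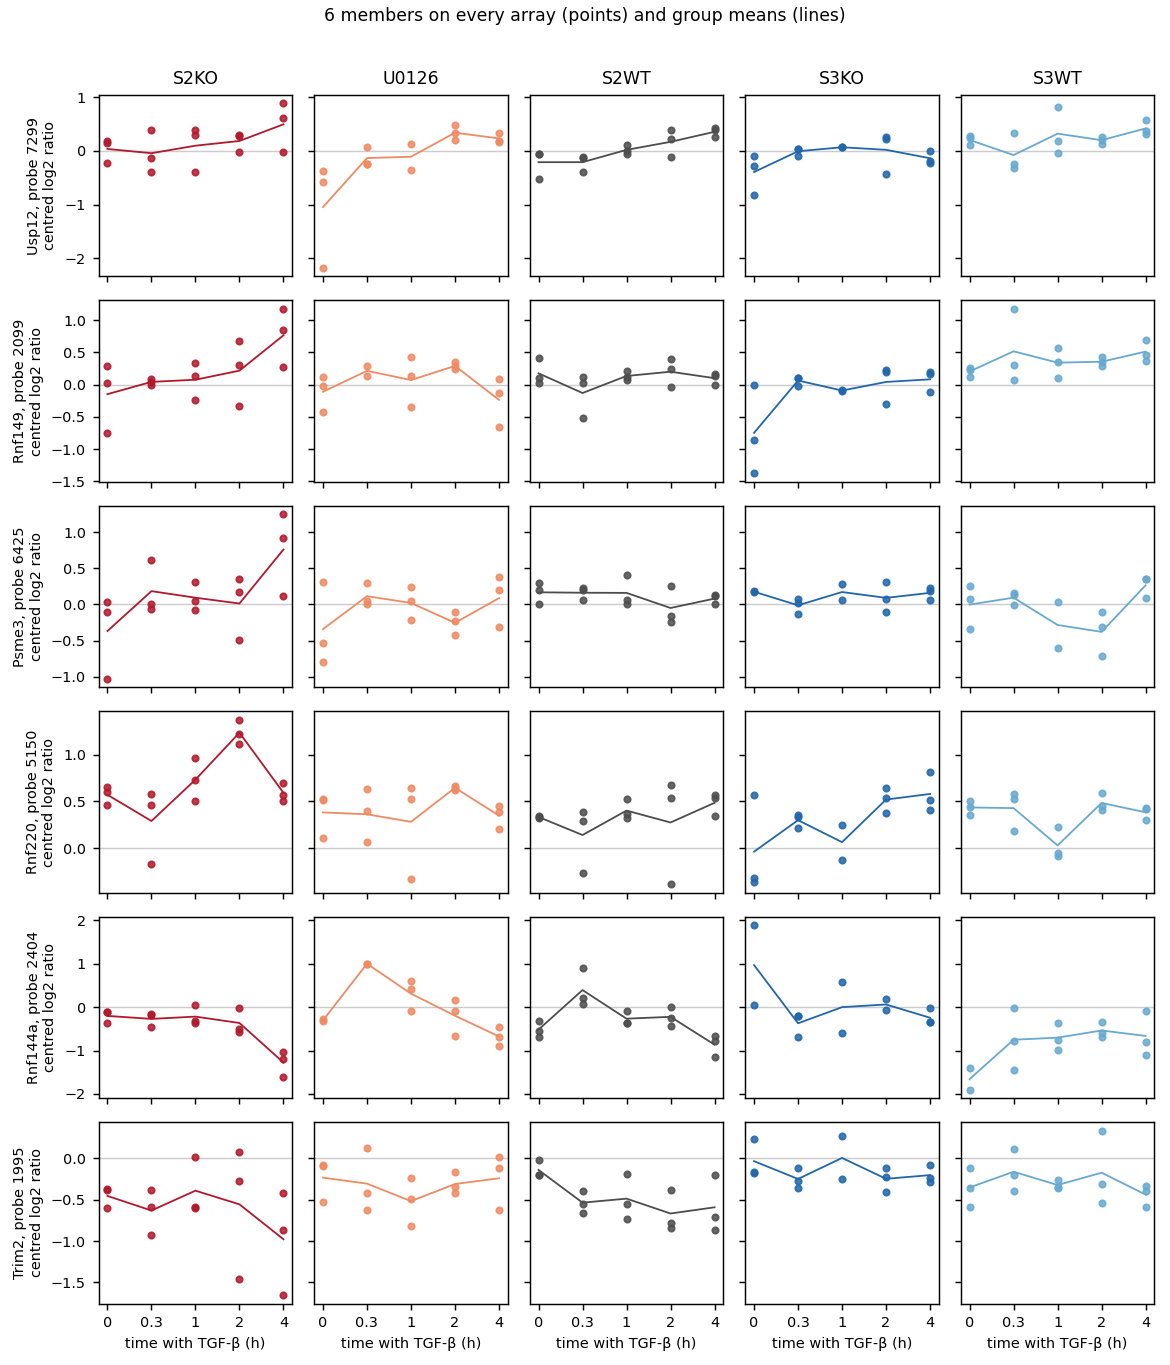
Centred log2 ratios of 6 members on every array that measured them (points) and group means (lines) against time with TGF-β in S2KO, U0126, S2WT, S3KO and S3WT arrays. The S2KO arrays at 4 h reach 0.89 for Usp12, 1.17 for Rnf149, 1.25 for Psme3 and -1.60 for Rnf144a, and Rnf220 is highest in S2KO cells at 2 h, with all 3 arrays above 1.

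The 5 S2KO calls at 4 h were alike in part. Each was lost without replicate 1 or replicate 3 of the S2KO 4 h arrays. Of the 3 members that rose, replicate 2 lay within or below the range of the 15 pooled 0 h arrays, while replicates 1 and 3 lay above it. Trim2 at replicate 2 read -0.42, also inside the range of its 0 h arrays, which reached -0.60. Rnf144a differed, since all 3 of its values, between -1.60 and -1.03, lay within the range of its pooled 0 h arrays. Scaled to a common spread, none of the 5 passed.

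Among the ubiquitin genes that act on the TGF-β pathway itself, 2 HECT ligases passed. The list holds 15 genes on 23 probes, of which the members Cul1, Nedd4l, Rnf11, Trim33, Ube2o, Usp15, Usp7 and Usp9x were not called. Smurf1 and Smurf2, HECT ligases outside the chosen symbols, rose in the lines named below. The processing alternatives and the fits without 1 array followed members only, so the Smurf calls were not put through them. Smurf1 gave 0.62 ± 0.11 in S2KO cells (adjusted p = 0.00015) and 0.45 ± 0.11 in S2WT cells (adjusted p = 0.019) against the pooled 0 h arrays. It gave 0.35 ± 0.11 in U0126 arrays, -0.05 ± 0.11 in S3KO cells and 0.30 ± 0.11 in S3WT cells, none of which passed. Its S2KO arrays read 1.75, 0.88 and 1.24 at 4 h, against 0.60, 0.47 and 0.59 at 0 h. In S2WT cells they read 1.32, 1.02 and 1.09 at 4 h, against 0.35, 0.45 and 0.19 at 0 h. Smurf2 probe 5215 gave 0.41 ± 0.07 in S2KO cells (adjusted p = 0.00016), 0.35 ± 0.07 in U0126 arrays (adjusted p = 0.0058) and 0.37 ± 0.07 in S2WT cells (adjusted p = 0.0022). In S3KO cells it gave 0.19 ± 0.08 and in S3WT cells 0.24 ± 0.07, neither called. Smurf2 has 2 other probes, 2306 and 4133, which gave 0.14 ± 0.15 and -0.11 ± 0.33 in S2KO cells. Over the list 2 of 23 probes passed in S2KO cells, against 2.49% of all probes, 1 in U0126 arrays, against 0.782%, 2 in S2WT cells, against 1.27%, and 0 in S3KO and S3WT cells, against 0.0141% and 0.146%. The list's medians were 0.055 in S2KO cells, 0.040 in U0126 arrays, 0.017 in S2WT cells, 0.087 in S3KO cells and 0.044 in S3WT cells. Usp15, a deubiquitinase of receptor-activated Smads, gave -0.06 ± 0.21 in S2KO cells and -0.40 ± 0.21 in S2WT cells.

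**Figure D4:**
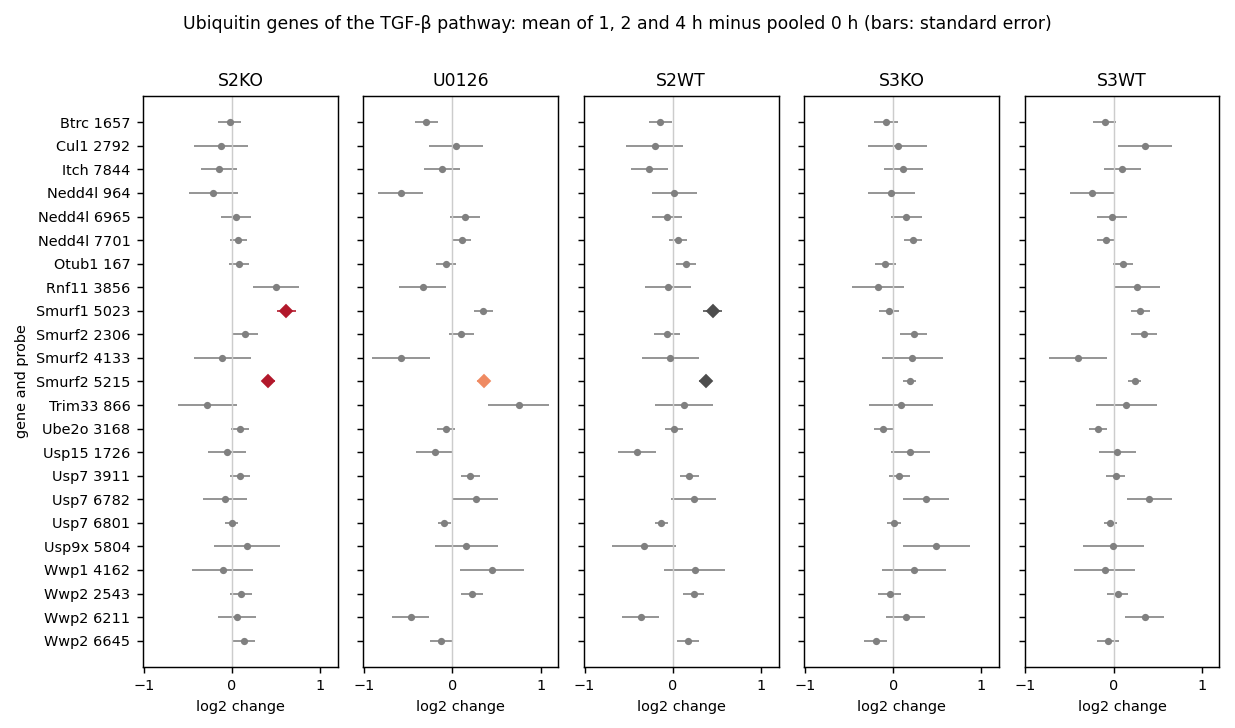
Mean of 1, 2 and 4 h minus the pooled 0 h arrays (log2, bars are the standard error) for the 23 probes of the 15 ubiquitin genes that act on the TGF-β pathway, 1 panel a line. Diamonds passed limma's test: Smurf1 5023 at 0.62 in S2KO and 0.45 in S2WT cells, and Smurf2 5215 at 0.41 in S2KO, 0.35 in U0126 and 0.37 in S2WT arrays.

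Ratios also varied between arrays of a group and lay away from 0 without treatment. The median spread within a group was 0.49 for members and 0.58 for all probes. No member had the same sign on every array that measured it. For 9 member probes the median over the 0 h arrays was more than 0.5 from 0, and for 7 of them the treated arrays had the same sign. Trim24 probe 1039 is an example, with a median of -0.66 on 42 treated arrays and -0.84 on 12 arrays at 0 h, and Fbxl6 another, with 0.30 on 44 and 0.53 on 15. Set against 0 rather than the 0 h arrays, the treated arrays called 45 of 178 members in S2KO cells, against 26.6% of all probes, 23 of 174 in U0126 arrays, against 14.3%, and 54 of 176 in S2WT cells, against 23.1%. In S3KO cells 1 of 170 was called, against 1.82%, and in S3WT cells 15 of 180, against 8.62%. By role, the median over arrays was -0.25 for cullins, -0.15 for Usp, 0.15 for the 20S core, 0.12 for the 19S ATPases, 0.10 for F-box and 0.096 for E2 probes, and 0.013 for all members.

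**Figure D5:**
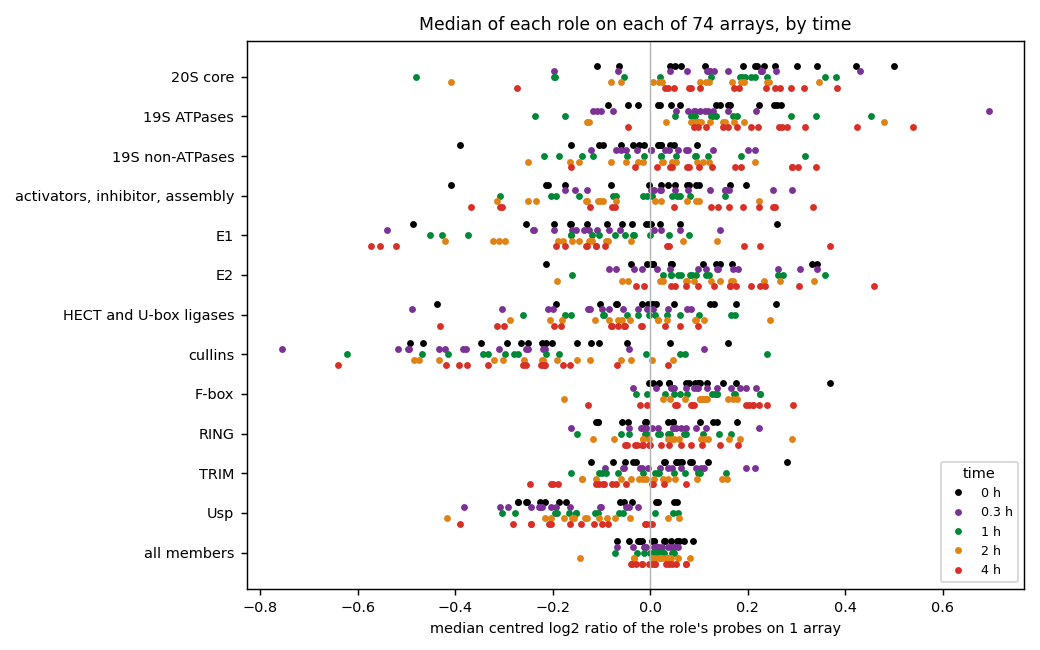
The x axis is the median centred log2 ratio of a role's probes on 1 array, each point 1 of the 74 arrays, coloured by time with TGF-β. The 0 h arrays (black) lie among the others in each role, and all members together stay between -0.14 and 0.088.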

How the data were processed

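Members and gene lists were chosen with earlier results of these data known. The deposited table holds log2 ratios of 2 channels per array, as the authors deposited them. The log2 scale and the direction are read from the values, while no source used here states the dyes, the background correction or the normalisation. Blank cells (41670) stayed missing, and 1344 cells at the log2 of a ratio of 100000 were set to missing. Each array was centred on its median, which had ranged between -0.595 and 0.215. No column of another series was used (0 such columns).

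Linear models with 1 mean for each of the 25 line and time groups were fitted by least squares in R 4.3.3. Variances were moderated with squeezeVar of limma 3.58.1, and the two-sided t test that used them is called limma's test here. Tested were all probes measured on at least 2 arrays in each group a comparison uses. P-values were adjusted by Benjamini-Hochberg over all probes tested, not over the members, and a probe was called under 0.05. A response is the mean of the 1, 2 and 4 h group means minus the line's own 0 h mean or the mean of the 5 lines' 0 h means, and a line difference is 1 response minus another. The 0.3 h arrays enter no test. With at most 3 arrays a group, array number limits the precision. Scripts were tested on simulated data.

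Named are the called members, the members of smallest p where none was called and within each role, and the listed ubiquitin genes of the TGF-β pathway. Probe names come from the platform annotation (7348 probes with 1 symbol, 399 with several, 1229 with none), updated through RefSeq. Within a line, arrays of the same replicate number in different groups had correlated deviations over 0.1 in 54 of 146 pairs (median 0.059). Arrays of unlike number were not set beside them, so this cannot decide whether the numbers pair the samples. The main fits did not treat the numbers as pairs. Alternatives were uncentred and scaled arrays, complete probes, a replicate block, other 0 h arrays, fewer lines, single times and each array left out. Single times and the 4 h comparisons were added after the data were seen.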

Additional observations from a re-analysis of the deposited data

Results flagged for a closer look

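Rnf144a probe 2404 passed a test of the difference between lines. The S3KO response minus the S3WT response was -2.05 (limma, adjusted p = 0.045). The 0 h arrays read 1.89 and 0.05 in S3KO cells and -1.91 and -1.41 in S3WT cells, and no other 0 h array of these lines measured the probe. With no 0 h arrays subtracted the difference was 0.57, in the opposite direction. The call was lost in 5 of 17 leave-one-out fits and in a fit on S3KO and S3WT arrays alone. Probe 7269 of the gene moved the other way in S3KO cells and was not tested in this comparison.

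The 0.3 h arrays enter no comparison. Among the 10 member probes called in any comparison, all 3 of them lay above the highest 0 h array of the same line in 6 of 41 pairs of a probe and a line with 3 arrays measured in each group, against 3.62% of the 31362 such pairs over all probes, which was not tested. Each of the 10 was called against the S3KO 0 h arrays or the pooled 0 h arrays of all lines. The choice of these probes thus drew on the 0 h arrays that the 0.3 h arrays are set beside here. The larger share among them therefore cannot show a change at 0.3 h. Rnf115 probe 5751 in S3KO cells was higher at 0.3 h by 1.40, with a mean of -0.27 against -1.67 at 0 h, although the labels give these S3KO 0.3 h arrays as without TGF-β in both channels. Usp12 probe 7299 in U0126 arrays was higher by 0.91, between -0.24 and 0.08 at 0.3 h against -2.18 to -0.38 at 0 h. Psmd5 probe 2651 was higher by 0.31 in S2WT cells, 0.39 in S3WT cells and 0.19 in U0126 arrays. Rnf144a probe 2404 in S2WT cells was higher by 0.91, with a mean of 0.39 at 0.3 h against -0.52 at 0 h. No group holds over 3 arrays, so single arrays were not tested as outliers.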

How the results depend on the processing

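Counts are of called members, and the share of all probes called follows in brackets. With uncentred arrays the S2KO pooled count was 0 (1.72%) and its 4 h count 3 (2.59%), and the S2WT pooled count 3 (3.9%) and its 4 h count 0 (0.999%). With scaled arrays S2KO pooled and 4 h counts were 0 (0.86%) and 0 (0.616%), S2WT own 0 h 1 (0.696%) and 4 h 0 (0.415%), S3KO own 0 h 7 (2.72%), S3WT pooled 2 (0.45%) and 4 h 1 (1.26%), and U0126 4 h 1 (1.53%). Over the 2244 probes measured on every array (45 members), the counts were 0 for S3KO (1.78%) and U0126 (0.134%) own 0 h, S2WT pooled (3.16%) and 4 h (4.1%), and S3KO minus S3WT (0.267%), 1 for S3WT 4 h (0.98%) and 3 for S2KO 4 h (8.6%). With no 0 h arrays subtracted they were 45 (26.6%) for S2KO, 23 (14.3%) for U0126, 54 (23.1%) for S2WT, 1 (1.82%) for S3KO, 15 (8.62%) for S3WT, 1 (0.326%) for S2KO minus S2WT and 0 (0%) for S3KO minus S3WT, and 2 members reversed, Cul3 in S3KO cells (-0.13) and Rnf144a in S3KO minus S3WT (0.57). Fitted on the compared lines only, S3KO and U0126 own 0 h and S3KO minus S3WT gave 0 (0% each), with differences of the same size. Without S3KO 0 h arrays in the pool, S2KO gave 1 (1.85%), and without the S2WT 4 h arrays S2WT gave 0 (0.276%). From 1 h arrays alone the pooled count was 0 (0.208%) in S2KO, 2 (0.273%) in U0126 and 1 (0.571%) in S3KO, and from 2 h arrays alone 1 (2.69%) in S2KO, 1 (0.234%) in U0126 and 0 (0.26%) in S2WT. The causes were not tested.

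Leaving out 1 array at a time, the own 0 h counts ranged between 0 and 1 in S2KO, U0126, S2WT and S3WT and between 1 and 12 in S3KO, the highest without the 0 h array of replicate 3. Pooled counts ranged between 1 and 7 in S2KO, the highest without replicate 2 at 4 h, between 0 and 2 in U0126, S2WT and S3WT, and between 0 and 1 in S3KO. At 4 h they ranged between 0 and 13 in S2KO, the highest without replicate 2 at 4 h, 0 and 2 in U0126, and 0 and 1 in S2WT, S3KO and S3WT. Line differences gave 0 in every S2KO minus S2WT fit, 0 to 3 in S3KO minus S3WT and 0 to 1 in U0126 minus S2WT. For Cul3 in S3KO cells, no fit could be had without either measured 0 h array.

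With the replicate number as a block, S3KO own 0 h gave 4 calls, S2KO pooled 4 and S2KO 4 h 6, and Rnf19a in S3KO cells lost its call at 1.29 (adjusted p = 0.060). The block changed no other call of a named member. Whether the numbers pair the samples was not settled by the check described with the processing.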
